A study of Homo sapiens with 8 samples.

Results

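The 9 genes described here regulate mTORC1, the kinase complex that couples cell growth to nutrients: DDIT4, the sestrins SESN1, SESN2 and SESN3, the tuberous sclerosis genes TSC1 and TSC2, DEPTOR, AKT1S1 and RHEB. They were taken by name, because DDIT4 was higher after both ways of editing the long non-coding RNA HOTSCRAMBL and more so after base editing. All 9 were found among the 63140 genes of the deposited count table, and all 9 were among the 24057 genes with enough reads to be tested. The DDIT4 values of those comparisons chose the list, so they are given without a test. The other 8 genes were tested in the same fit as every other gene.

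By the sample titles, the cells were MOLM13 and OCI-AML4, established human acute myeloid leukaemia lines, harvested 3 days after editing. Guides to HOTSCRAMBL were compared with guides to AAVS1, the control site of the series, whose cells the labels call wild type (WT). Each target was edited by Cas9 ribonucleoprotein (knockout, KO), which cuts the DNA, or by a cytosine base editor (CBE), which converts C to T while leaving the double strand uncut, and the reagents entered the cells by nucleofection. This gave 4 groups, AAVS1 KO and AAVS1 CBE as controls and HOTSCRAMBL KO and HOTSCRAMBL CBE, of 2 libraries each, 1 titled MOLM13 and 1 titled OCI-AML4. By these titles a group held no repeat within a line, and p-values measure the spread between these libraries only. The line of a library is given only in its title, so the lines named below are title labels. Line and replicate number cannot be told apart. The share of cells edited is not given in the sources used here. RNA was not taken from whole lysate: it was recovered with biotinylated probes from cross-linked, sonicated cells (ChIRP), the labels do not name the RNA the probes bind, and no input library was analysed here. Every level below is an amount in that pull-down. In it, fewer cells with a transcript, less of it per cell and poorer recovery of it cannot be told apart.

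Library totals ran from 20548300 to 37970163 counts, and both reads of a pair were counted. The table has no gene named HOTSCRAMBL, so the edit itself was not checked. The summed level of 8 myeloid markers was 1094 to 1188 CPM (counts scaled to a common library size) in the AAVS1 libraries, 1537 to 1693 in HOTSCRAMBL KO and 1183 to 1226 in HOTSCRAMBL CBE. With KO 2 of the 8 had a positive change, LYZ at 2.20 and CEBPA at 1.00 (edgeR adjusted p 9.41e-13 and 4.62e-06). The other 6 were negative without passing in edgeR, and the list median was -0.20. Of the 8, 6 had an unadjusted p under 0.05 with KO, and DESeq2 called 4. With CBE 5 of the 8 were positive, edgeR called 2, both higher, DESeq2 called 4, and the list median was 0.10. LYZ alone stood at 120.0 and 141 CPM in AAVS1 KO and at 506 and 702 CPM in HOTSCRAMBL KO, so the higher sum there is mostly LYZ. The part of these markers in the results was not tested. The 4 T and NK cell markers summed to 11.4 to 27.7 CPM with CD3E and CD2 at 0 in every library, the 3 B cell markers to 6.32 to 11.4 CPM, the 3 red cell markers to 0.0 to 1.66 CPM with HBB at 0, and the 4 epithelial and stromal markers to 0.0 to 2.74 CPM.

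mTORC1 is switched on at the lysosome by the small GTPase RHEB, and the complex of TSC1 and TSC2 holds RHEB in its inactive state. DDIT4, also called REDD1, is induced by hypoxia, energy shortage, glucocorticoids and the integrated stress response, and restrains mTORC1 through the TSC complex. The sestrins are stress-induced proteins that hold back mTORC1 through the GATOR complexes, with SESN2 acting as a leucine sensor, while DEPTOR and AKT1S1 (PRAS40) bind mTORC1 itself. RHEB is thus the activator in this list, and the other genes encode brakes.

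DDIT4 is the gene the list was chosen on, and of the 8 tested genes SESN2 was the 1 called higher with CBE, so the DNA before their starts is shown for both. The sequences come from RefSeq (GRCh38.p14), which had promoter entries for 7 of the 9 genes, and run 5′ to 3′ on the gene's strand. They end a few bases short of the start site that the positions below are counted from. The DDIT4 stretch is chr10:72273674-72273918 (plus strand) and the SESN2 stretch is chr1:28259268-28259512 (plus strand). Capitals mark ACGTG and GCGTG, the core of the hypoxia response element; the SESN2 stretch holds neither on the gene's strand or the opposite one.
DDIT4: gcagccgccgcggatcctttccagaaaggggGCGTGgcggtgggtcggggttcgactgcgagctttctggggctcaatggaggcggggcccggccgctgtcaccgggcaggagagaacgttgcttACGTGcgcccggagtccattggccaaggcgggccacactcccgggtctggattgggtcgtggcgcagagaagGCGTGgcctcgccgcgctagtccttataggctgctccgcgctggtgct
SESN2: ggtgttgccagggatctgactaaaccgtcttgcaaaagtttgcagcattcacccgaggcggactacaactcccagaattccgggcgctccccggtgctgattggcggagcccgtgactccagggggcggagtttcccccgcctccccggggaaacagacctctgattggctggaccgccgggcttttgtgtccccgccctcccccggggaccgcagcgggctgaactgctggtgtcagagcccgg

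In the 245-base stretch before each start, DDIT4 had ACGTG beginning 125 bases before the start and GCGTG beginning 219 and 53 bases before it. Distances here run to the start and not to the end of the printed stretch. These cores are short and common: over both strands, 18.2% of 35116 RefSeq promoters had ACGTG and 31.8% had GCGTG. The ATF4 element TGATGNAAN (in 3.08% of promoters), the E-box CACGTG (6.19%, each match also holding ACGTG) and the FOXO element GTAAACA (2.91%) had no match before DDIT4 or SESN2. TSC2 had TGATGCAAG beginning 110 bases and CACGTG beginning 114 bases before 1 of its 2 listed starts. SESN1 had GCGTG before 1 of its 3 listed starts, RHEB had ACGTG on the opposite strand, and SESN3 and TSC1 had no match. GC content was 68.6% before DDIT4 and 65.3% before SESN2, against a median of 58.0% over all promoters.

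DDIT4 (ENSG00000168209, chromosome 10, 72273919 to 72276036, GRCh38, plus strand) has no annotated gene overlapping its exons. In the MOLM13 libraries the AAVS1 controls stood at 977 CPM for KO and 1002 CPM for CBE, against 2876 CPM after HOTSCRAMBL KO and 5108 CPM after HOTSCRAMBL CBE. In the OCI-AML4 libraries the controls stood at 1400.0 and 1394 CPM, against 3473 and 6387 CPM. All 4 HOTSCRAMBL libraries were above all 4 AAVS1 libraries, and both HOTSCRAMBL CBE libraries were above both HOTSCRAMBL KO libraries. The KO ratio was 2.94 in MOLM13 and 2.48 in OCI-AML4, and the CBE ratio was 5.10 in MOLM13 and 4.58 in OCI-AML4. The fitted log2 fold change was 1.43 (SE 0.0770) with KO and 2.27 (SE 0.0781) with CBE, a difference of 0.84 (SE 0.107).

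DDIT4 was among the most abundant transcripts of the pull-down in the AAVS1 libraries too. It ranked 73rd of 24057 genes in the MOLM13 AAVS1 KO library and 35th in the OCI-AML4 one, and 64th and 36th in the AAVS1 CBE libraries. In HOTSCRAMBL KO it ranked 20th in MOLM13 and 17th in OCI-AML4, and in HOTSCRAMBL CBE 8th and 7th. Its share of all counts was 0.101% to 0.149% in the AAVS1 libraries, 0.274% and 0.322% in HOTSCRAMBL KO, and 0.485% and 0.615% in HOTSCRAMBL CBE. The raw counts behind these values ran from 24925 to 184316 a library, so counting error is small beside the gap between the lines.

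**Figure D1:**
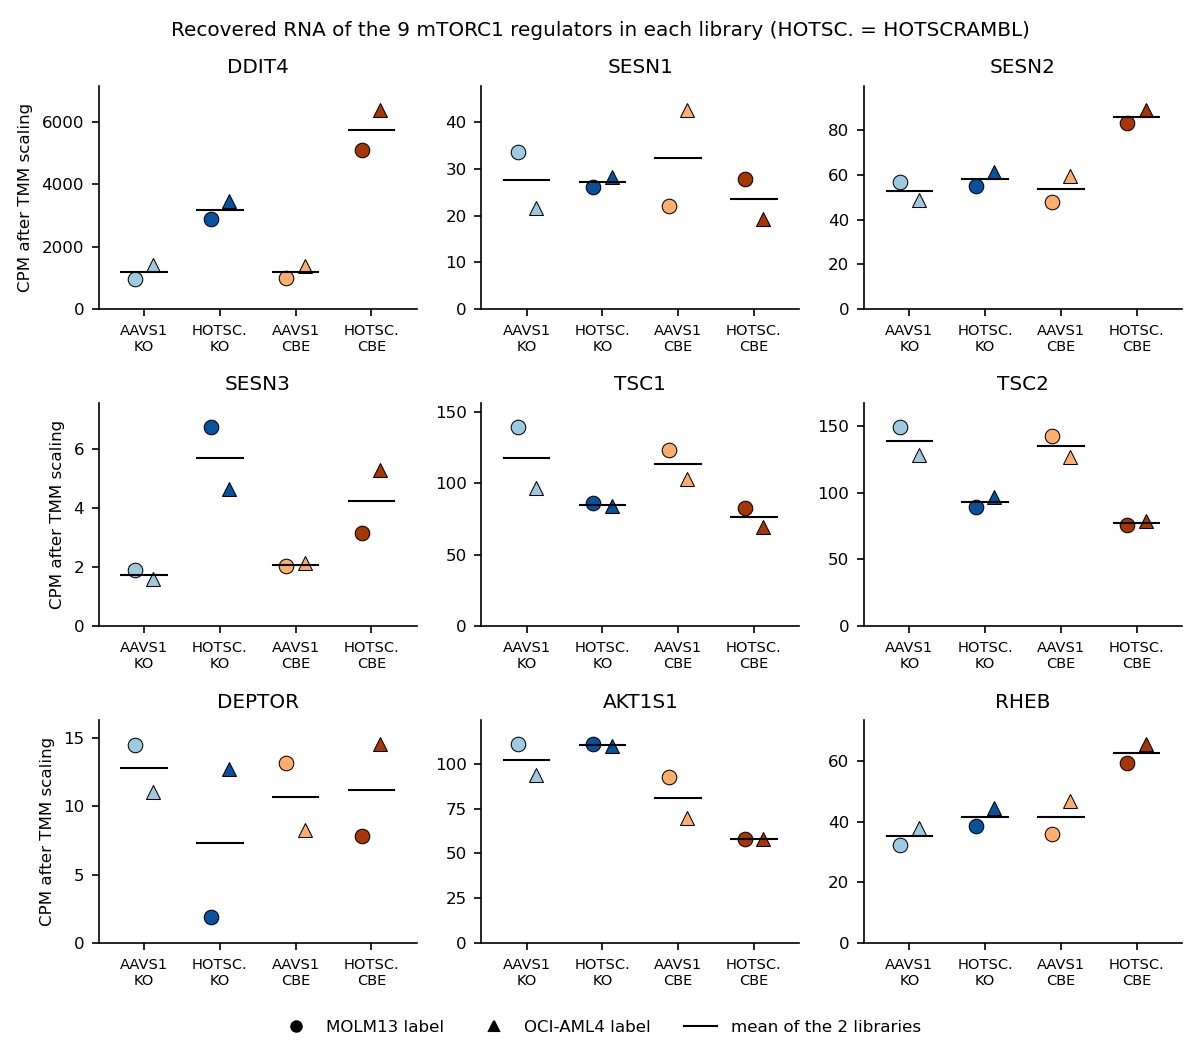
Level of each of the 9 genes in each library, in CPM after TMM scaling (linear axes from 0), by group; circles are MOLM13, triangles OCI-AML4, and bars the mean of the 2 libraries. DDIT4 separates the HOTSCRAMBL from the AAVS1 libraries with both editors, TSC2 and TSC1 separate them in the other direction, and SESN1 and DEPTOR overlap.

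Of the sestrins, SESN2 was higher with base editing and was not called with knockout, SESN3 was scarce and uncertain, and SESN1 overlapped throughout. SESN2 (ENSG00000130766, chromosome 1, 28259518 to 28282491, plus strand, no overlapping gene) stood at 57.0 and 48.8 CPM in the AAVS1 KO libraries, with MOLM13 given first here and for the genes that follow, and at 54.9 and 61.3 CPM after HOTSCRAMBL KO. It stood at 47.6 and 59.6 CPM in AAVS1 CBE and at 83.1 and 89.1 CPM in HOTSCRAMBL CBE. The KO groups overlapped, and both HOTSCRAMBL CBE libraries were above all other libraries. With CBE it rose by 0.69 on the log2 scale (SE 0.181, edgeR adjusted p 0.0137), and with KO its log2 fold change was 0.13 (SE 0.209, edgeR adjusted p 0.777). The difference between the editors' effects was 0.56 (SE 0.277, edgeR adjusted p 0.372), so the effects were not shown to differ. The CBE call was lost when any 1 of the 4 libraries of that comparison was left out, with edgeR adjusted p of 0.345 and 0.0700 without the MOLM13 and OCI-AML4 AAVS1 CBE libraries and 0.223 and 0.143 without the HOTSCRAMBL CBE ones. It was also lost in a fit of those 4 libraries alone (edgeR adjusted p 0.0835) and without TMM scaling (0.0525).

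SESN3 (ENSG00000149212, chromosome 11, 95165513 to 95232541, minus strand) was the scarcest of the 9, with 40 to 134 counts a library. With KO it stood at 1.88 and 1.60 CPM in the AAVS1 and 6.73 and 4.65 CPM in the HOTSCRAMBL libraries. With CBE it stood at 2.04 and 2.12 CPM in the AAVS1 and 3.16 and 5.28 CPM in the HOTSCRAMBL libraries. All 4 HOTSCRAMBL libraries were above all 4 AAVS1 libraries. The log2 fold change was 1.69 with KO (SE 0.773, edgeR adjusted p 0.213) and 0.96 with CBE (SE 0.702, edgeR adjusted p 0.490), and neither passed the threshold of 0.05. DESeq2 on the same genes gave an adjusted p of 0.0370 with KO. Of its exon bases, 98 are shared with LNCRNA-IUR, which unstranded counting cannot separate.

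SESN1 (ENSG00000080546, chromosome 6, 108984309 to 109094846, minus strand), is a p53-responsive sestrin. With KO it stood at 33.7 and 21.7 CPM in the AAVS1 and 26.2 and 28.2 CPM in the HOTSCRAMBL libraries. With CBE it stood at 22.0 and 42.7 CPM in the AAVS1 and 28.0 and 19.3 CPM in the HOTSCRAMBL libraries. The groups overlapped with both editors, and the lines went opposite ways. The log2 ratio was -0.36 in MOLM13 and 0.38 in OCI-AML4 with KO, and 0.35 and -1.14 with CBE. Its fitted changes were -0.03 with KO (SE 0.346, edgeR adjusted p 0.980) and -0.38 with CBE (SE 0.309, edgeR adjusted p 0.542). Per length, SESN2 made up 74.0% to 81.8% of the summed sestrin level in the AAVS1 libraries, 78.9% and 80.4% in HOTSCRAMBL KO, and 85.3% and 89.1% in HOTSCRAMBL CBE. SESN3 made up at most 3.17% in any library. The SESN2 share was highest in the 2 HOTSCRAMBL CBE libraries.

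TSC2 fell with both editors and TSC1 with base editing, in the direction opposite to the DDIT4 values. TSC2 (ENSG00000103197, chromosome 16, 2047967 to 2089491, plus strand), the subunit that inactivates RHEB, stood at 149 and 129 CPM in the AAVS1 KO libraries and at 89.3 and 96.5 CPM after HOTSCRAMBL KO. It stood at 143 and 127 CPM in AAVS1 CBE and at 75.8 and 79.1 CPM in HOTSCRAMBL CBE. All 4 HOTSCRAMBL libraries were below all 4 AAVS1 libraries, and both CBE ones were below both KO ones. TSC2 fell by 0.58 on the log2 scale with KO (SE 0.157, edgeR adjusted p 0.0184) and by 0.81 with CBE (SE 0.150, edgeR adjusted p 5.59e-04). The editors' effects differed by -0.23 (edgeR adjusted p 0.703), which did not pass. The KO call was lost without any 1 of its 4 libraries, with edgeR adjusted p of 0.379 and 0.0958 without the MOLM13 and OCI-AML4 AAVS1 KO libraries and 0.256 and 0.0637 without the HOTSCRAMBL KO ones. It was also lost in a fit of those 4 libraries alone (0.122). The CBE call was lost without the MOLM13 library of AAVS1 CBE (edgeR adjusted p 0.0677) or of HOTSCRAMBL CBE (0.0912), and held without either OCI-AML4 library. Of its exon bases, 784 (3.82%) are shared with PKD1.

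TSC1 (ENSG00000165699, chromosome 9, 132891348 to 132946874, minus strand), the partner that stabilises TSC2, stood at 139.6 and 96.5 CPM in the AAVS1 KO libraries and at 86.4 and 83.8 CPM after HOTSCRAMBL KO. It stood at 123 and 103 CPM in AAVS1 CBE and at 83.0 and 69.3 CPM in HOTSCRAMBL CBE. Again all 4 HOTSCRAMBL libraries were below all 4 AAVS1 libraries. TSC1 fell by 0.57 on the log2 scale with CBE (SE 0.158, edgeR adjusted p 0.0192). With KO its log2 fold change was -0.46 (SE 0.167, edgeR adjusted p 0.0965). The CBE call was lost without any 1 of the 4 CBE libraries, with edgeR adjusted p of 0.202 and 0.186 without the MOLM13 and OCI-AML4 AAVS1 libraries and 0.305 and 0.136 without the HOTSCRAMBL ones. It was lost too in a fit of those libraries alone (0.0850) and without the line label as a block (0.0706). The KO value passed without TMM scaling (edgeR adjusted p 0.0139) and with DESeq2 (0.0201).

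TSC1 and TSC2 are long gene models, of 18668 and 20527 exon bases, and DDIT4 is short, with 2118. Among tested genes above the median level, split into 4 bins of equal size by length, the shortest bin (49 to 3121 bases) had median changes of 0.08 with KO and 0.09 with CBE, as log2. The longest bin (8050 bases and over) had medians of -0.09 and -0.00. The part of gene length in the values of TSC1, TSC2 and DDIT4 was not tested.

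RHEB (ENSG00000106615, chromosome 7, 151466012 to 151520120, minus strand, no overlapping gene) stood at 32.4 and 37.9 CPM in the AAVS1 KO libraries and at 38.4 and 44.5 CPM after HOTSCRAMBL KO. It stood at 35.7 and 46.9 CPM in AAVS1 CBE and at 59.3 and 65.6 CPM in HOTSCRAMBL CBE. The groups did not overlap within either editor, with the HOTSCRAMBL libraries above. Its log2 fold change was 0.24 with KO (SE 0.242, edgeR adjusted p 0.651) and 0.61 with CBE (SE 0.198, edgeR adjusted p 0.0556), so neither passed. With DESeq2 the CBE change passed (adjusted p 0.00271). Reads of RHEB could be lost to its processed pseudogenes, of which RHEBP1, RHEBP2 and RHEBP3 held 0, 102 and 2 counts over all libraries. The ratio of RHEB to TSC2, as CPM, was 0.217 to 0.369 in the AAVS1 libraries, 0.429 and 0.462 in HOTSCRAMBL KO, and 0.782 and 0.828 in HOTSCRAMBL CBE. That ratio was chosen after the values were seen and has no test.

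AKT1S1 (ENSG00000204673, chromosome 19, 49869033 to 49878459, minus strand), an mTORC1-bound inhibitor that AKT releases by phosphorylation, stood at 111 and 93.6 CPM in the AAVS1 KO libraries and at 111 and 109.9 CPM after HOTSCRAMBL KO. It stood at 92.4 and 69.6 CPM in AAVS1 CBE and at 58.0 CPM in both HOTSCRAMBL CBE libraries. The KO groups overlapped, and both HOTSCRAMBL CBE libraries were below every other library. The log2 fold change was 0.12 with KO (SE 0.165, edgeR adjusted p 0.752) and -0.49 with CBE (SE 0.172, edgeR adjusted p 0.0803). The CBE change passed without TMM scaling (edgeR adjusted p 0.0170) and with DESeq2 (0.00943). The editors' effects differed by -0.61 (SE 0.238, unadjusted p 0.0174, edgeR adjusted p 0.213), which passed with DESeq2 alone (adjusted p 0.0313).

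DEPTOR (ENSG00000155792, chromosome 8, 119873717 to 120050918, plus strand), the other direct inhibitor, turned on 1 library. With KO it stood at 14.5 and 11.1 CPM in the AAVS1 and 1.89 and 12.7 CPM in the HOTSCRAMBL libraries. With CBE it stood at 13.1 and 8.23 CPM in the AAVS1 and 7.84 and 14.6 CPM in the HOTSCRAMBL libraries. The low value is the MOLM13 library of HOTSCRAMBL KO, with 37 counts, and the groups overlapped with both editors. The MOLM13 log2 ratio was -2.94 with KO and -0.74 with CBE, against 0.20 and 0.82 in OCI-AML4. The fitted change was -0.76 with KO (SE 0.556, edgeR adjusted p 0.494) and -0.02 with CBE (SE 0.466, edgeR adjusted p 0.992). Of the exon bases of DEPTOR, 252 (9.59%) are shared with DEPTOR-AS1.

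**Figure D2:**
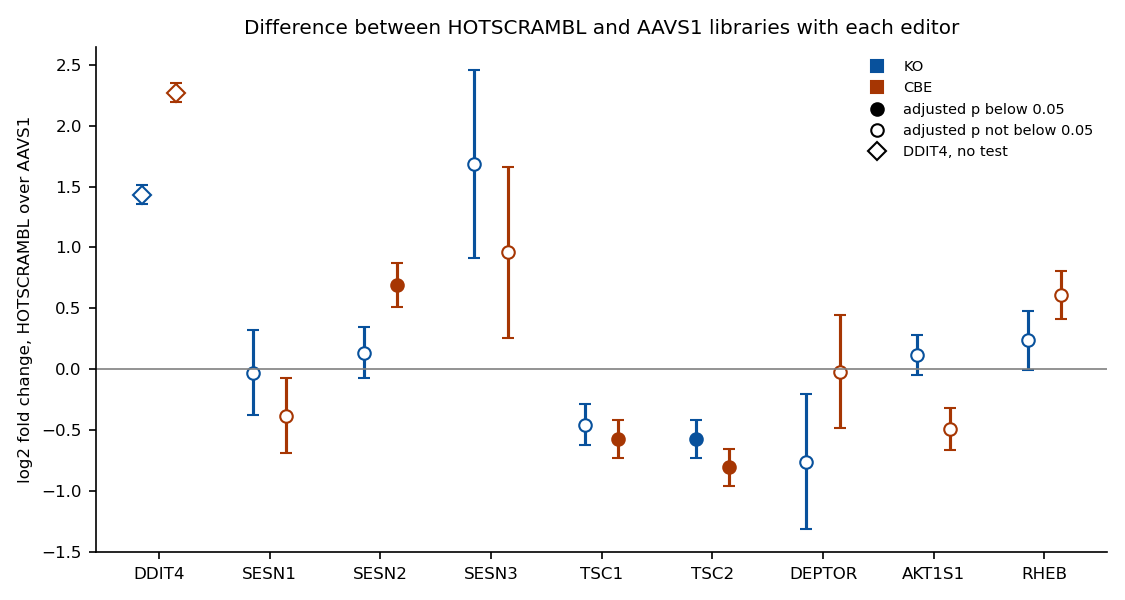
Fitted log2 fold change of HOTSCRAMBL over AAVS1 libraries for each gene, with KO in blue and CBE in red; bars are 1 SE, filled circles passed an adjusted p of 0.05, open circles did not, and diamonds mark DDIT4, which has no test. TSC2 lies below 0 and passes with both editors, SESN2 (0.69) and TSC1 (-0.57) pass with CBE, and the bars of SESN3 and DEPTOR are the longest.

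Over the 8 genes other than DDIT4, 1 passed with KO (TSC2, lower), where edgeR called 8.76% of all tested genes and 4.25% as lower. With KO 3 of the 8 had an unadjusted p under 0.05, as had 4834 of all 24057 tested genes. With CBE 3 passed (SESN2 higher, TSC1 and TSC2 lower), where 8.83% of all tested genes were called, 4.56% as higher and 4.27% as lower. An unadjusted p under 0.05 was found with CBE for 5 of the 8 and for 4845 of all 24057 tested genes. Power depends on level, and 8 of the 9 genes lie above the median level of tested genes, where 16.1% were called with KO and 16.8% with CBE. The median log2 fold change of the 8 was 0.04 with KO and -0.20 with CBE, against -0.01 and -0.02 over all genes. Groups did not overlap for 4 of the 8 with KO (44.8% of all tested genes) and for 6 of the 8 with CBE (46.4%). SESN3, TSC1 and TSC2 had no overlap between all 4 HOTSCRAMBL and all 4 AAVS1 libraries, as had 11.9% of all tested genes (5.67% higher as SESN3, 6.21% lower as TSC1 and TSC2). These comparisons are those the gene list was chosen on, so nothing is read from these counts. The KO and CBE comparisons share no library.

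Whether the editors' effects differed was tested for each of the 8. None passed with edgeR (3.19% of all tested genes did). AKT1S1 alone had an unadjusted p under 0.05, as had 3399 of all 24057 tested genes, and it alone passed with DESeq2. The differences, CBE minus KO, were 0.37 for RHEB (edgeR adjusted p 0.662), -0.12 for TSC1 (0.889), -0.36 for SESN1 (0.808), -0.73 for SESN3 (0.842) and 0.74 for DEPTOR (0.720).

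Levels per length could be ordered within each group. The length counts every annotated exon base of a gene, 20527 for TSC2 and 2118 for DDIT4, and can exceed that of the transcripts present. Transcript lengths were not measured, and these orders and the sestrin shares above depend on the length used. In AAVS1 KO, DDIT4 had 561 CPM per kb of exon, AKT1S1 17.8, SESN2 15.3, RHEB 9.95, TSC2 6.77, TSC1 6.32, DEPTOR 4.86, SESN1 3.81 and SESN3 0.165. AKT1S1 and SESN2 overlapped there, as did each neighbour from TSC2 to SESN1, and DDIT4, RHEB and SESN3 stood clear of their neighbours. In HOTSCRAMBL CBE the order was DDIT4 at 2714 CPM per kb, SESN2 at 24.9, RHEB at 17.7, AKT1S1 at 10.1, DEPTOR at 4.27, TSC1 at 4.08, TSC2 at 3.77, SESN1 at 3.25 and SESN3 at 0.399. The first 4 stood clear of one another and the next 4 overlapped. DDIT4 was first and SESN3 last in all 4 groups, and AKT1S1 was second in both KO groups, the third in AAVS1 CBE, where it overlapped SESN2 and RHEB, and the fourth in HOTSCRAMBL CBE.

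**Figure D3:**
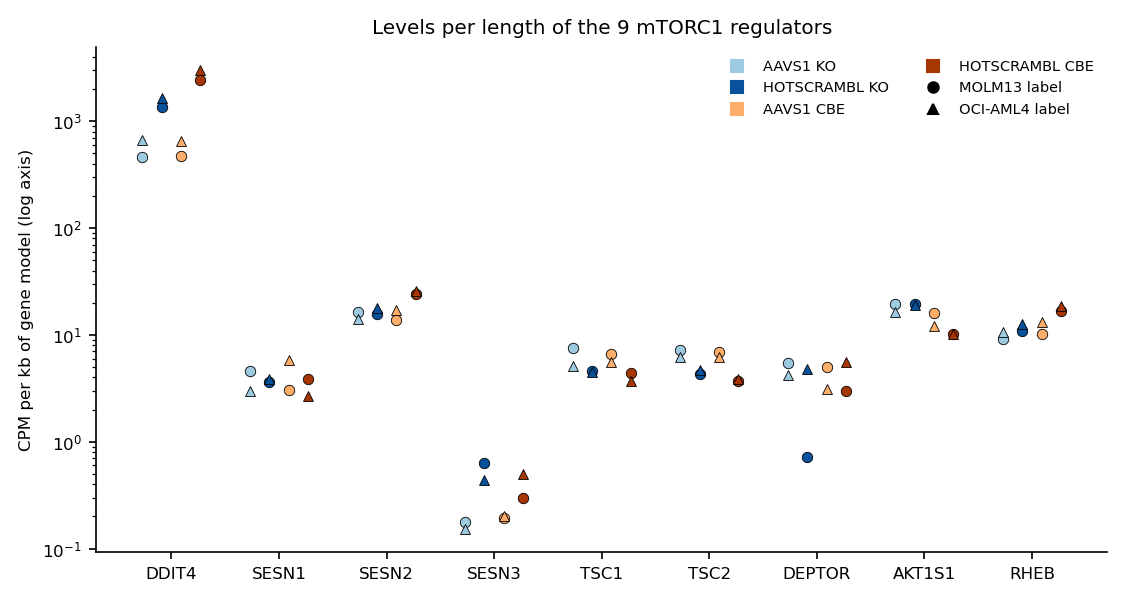
Level per length of each gene in each library, in CPM per kb of exon on a log axis, coloured by group with circles for MOLM13 and triangles for OCI-AML4. DDIT4 lies above every other gene in every library, SESN3 lies lowest in every library, and 1 DEPTOR library (HOTSCRAMBL KO, MOLM13) stands below the other DEPTOR values.

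The AAVS1 libraries of the editors were also compared directly. DDIT4 differed by 0.01 on the log2 scale (SE 0.0763, edgeR adjusted p 0.997). None of the 9 genes was called by edgeR or DESeq2, none had an unadjusted p under 0.05, and edgeR called 0.0% of all tested genes, with 918 at an unadjusted p under 0.05 and 35 called by DESeq2. AKT1S1 had a log2 difference of -0.34, CBE minus KO (SE 0.163, unadjusted p 0.0502, edgeR adjusted p 0.991).

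Between the line labels, DDIT4 was lower in the library titled MOLM13 than in the one titled OCI-AML4 in every group. The difference was -0.39 on the log2 scale (SE 0.0534, edgeR adjusted p 9.10e-05) and held in all 13 alternatives tried. Each label is also 1 replicate number, so a difference of line and one of replicate cannot be told apart. DDIT4 was the only 1 of the 9 genes called, against 0.495% of all tested genes (0.258% lower in MOLM13). TSC1 was the other gene with an unadjusted p under 0.05, at 0.29 (SE 0.114, edgeR adjusted p 0.409). Such a p was found for 2210 of all 24057 tested genes. Whether the HOTSCRAMBL effect differed between the lines gave 0 calls among the 9 genes by edgeR or DESeq2 (0.0% of all tested genes by edgeR, with 985 at an unadjusted p under 0.05 and 68 called by DESeq2). For DDIT4 that difference was 0.20 (SE 0.0934, unadjusted p 0.0547, edgeR adjusted p 0.982), and for DEPTOR, the 1 gene with an unadjusted p under 0.05, it was -1.87 (SE 0.632, unadjusted p 0.0127, edgeR adjusted p 0.982).

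The rest of the pathway was described through 6 lists of mTOR genes, of which 75 of 76 genes were tested. With KO 12 passed, 3 higher and 9 lower, and with CBE 13 passed, 3 higher and 10 lower. These are 16.0% and 17.3% of the 75, near the 16.1% and 16.8% called among all tested genes above the median level (8.76% and 8.83% of all tested genes), so nothing is read from the counts. Among the subunits of mTORC1 and mTORC2 and their assembly factors, 3 of 9 passed with each editor. TELO2, which helps assemble mTOR complexes, fell by 0.80 with KO (SE 0.147, edgeR adjusted p 4.79e-04) and by 0.73 with CBE (SE 0.142, edgeR adjusted p 8.83e-04). The KO call of TELO2 was lost without the OCI-AML4 AAVS1 KO library (edgeR adjusted p 0.0596), and its CBE call without the MOLM13 library of AAVS1 CBE (0.137) or of HOTSCRAMBL CBE. With CBE the kinase gene MTOR fell by 0.42 and RPTOR, the mTORC1 scaffold, by 0.40 (edgeR adjusted p 0.0321 and 0.0438). Both calls were lost whichever of the 8 libraries was left out, with edgeR adjusted p of 0.0514 to 0.487 for MTOR and 0.0639 to 0.477 for RPTOR. With KO the mTORC2-associated PRR5L fell by 1.80 and PRR5 rose by 1.71 (edgeR adjusted p 0.0242 and 0.0343). The PRR5 call too was lost whichever library was left out (edgeR adjusted p 0.0592 to 0.433), and its value was 1.11 without the OCI-AML4 AAVS1 KO library and 2.68 without the MOLM13 one. That of PRR5L held only without either AAVS1 CBE library (edgeR adjusted p up to 0.330 otherwise).

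Upstream of mTORC1, GATOR, KICSTOR and sensor genes had 2 of 14 called with each editor, all lower. That share, 14.3%, is near the 16.1% (KO) and 16.8% (CBE) of all tested genes above the median level. ITFG2, a KICSTOR subunit, fell by 0.60 with KO and 0.61 with CBE (edgeR adjusted p 0.0248 and 0.0130). The 14 genes listed with the Rag GTPases and Ragulator also include SLC38A9, FLCN, FNIP1, FNIP2 and TBC1D7. Of these 14, RRAGB fell by 1.19 with KO (edgeR adjusted p 0.0208). With CBE none of these 14 passed with edgeR or DESeq2, and 1 had an unadjusted p under 0.05. Of 8 tested AMPK and LKB1 genes, STK11, which encodes LKB1, fell by 0.42 with KO and 0.74 with CBE, and PRKAG2 fell by 0.81 with CBE (edgeR adjusted p 0.0499, 3.31e-04 and 0.0345). The KO call of STK11 was lost whichever library was left out (edgeR adjusted p 0.0514 to 0.488), with a value of -0.26 without the OCI-AML4 HOTSCRAMBL KO library and -0.60 without the MOLM13 one. Its CBE call was lost only without the MOLM13 HOTSCRAMBL CBE library (0.0611). Of 14 PI3K and AKT genes, AKT1 fell by 0.64 with both editors (edgeR adjusted p 0.0302 with KO and 0.0171 with CBE). With CBE the AKT1 value was -0.33 without the MOLM13 AAVS1 CBE library (edgeR adjusted p 0.601) and -0.91 without the OCI-AML4 one (0.0168). With KO it was -0.43 without the MOLM13 HOTSCRAMBL KO library (edgeR adjusted p 0.421) and -0.91 without the OCI-AML4 one (0.0560). INPP5D fell by 0.60 with KO, IRS2 fell by 0.49 with CBE, and IRS1 rose by 2.87 with CBE (edgeR adjusted p 2.04e-04, 0.0377 and 0.00410). IRS1 rests on few reads: 81 and 6 counts in the AAVS1 CBE libraries against 421 and 221 after HOTSCRAMBL CBE. Its value was 5.45 without the MOLM13 AAVS1 CBE library and 2.18 without the OCI-AML4 one (edgeR adjusted p 0.0517 and 0.135), and the call was lost without any 1 of the 4 CBE libraries.

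Of the 16 substrates and effectors of mTORC1, 3 passed with each editor, 2 higher and 1 lower. That share, 18.8%, is near the 16.1% (KO) and 16.8% (CBE) of all tested genes above the median level. EIF4EBP1, the translation repressor that mTORC1 inactivates, rose by 0.68 with KO (edgeR adjusted p 0.00107) and by 0.50 with CBE (edgeR adjusted p 0.0159). ULK1, the autophagy kinase that mTORC1 inhibits, fell by 0.96 with KO (edgeR adjusted p 1.43e-04) and by 0.58 with CBE (edgeR adjusted p 0.00819). RPS6KB1, which encodes S6 kinase, rose by 0.92 with KO (edgeR adjusted p 6.76e-07), and EIF4EBP2 rose by 0.57 with CBE (edgeR adjusted p 0.0163).

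**Figure D4:**
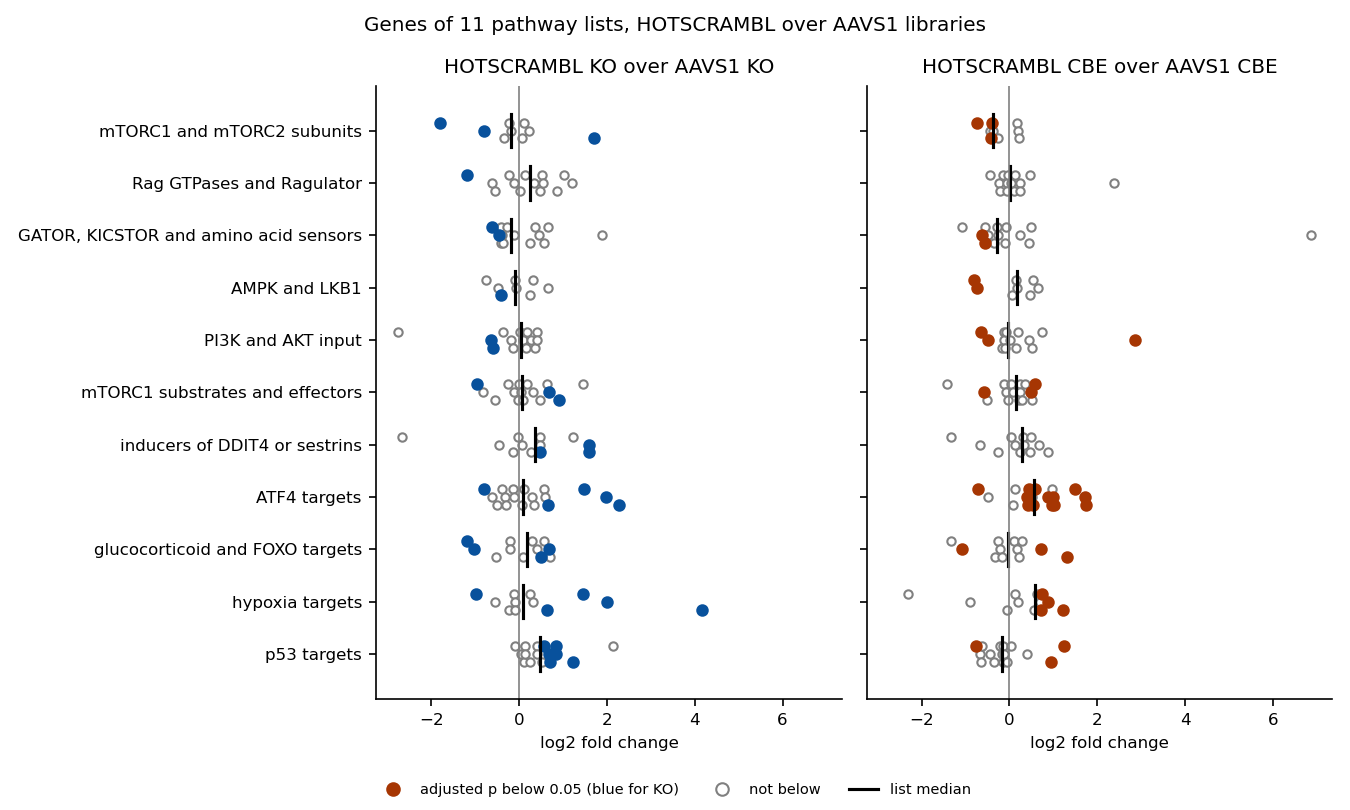
Log2 fold change of each tested gene of 11 pathway lists, HOTSCRAMBL over AAVS1, with KO on the left and CBE on the right; filled points passed an adjusted p of 0.05, open points did not, and bars are list medians. ATF4 targets lie mostly to the right with CBE (median 0.55) and p53 targets with KO (median 0.48).

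Genes known to induce DDIT4 or the sestrins, and targets of the same inducers, were read as 5 further lists. Of 12 such inducers, 3 passed with KO, all higher: CEBPB by 1.60, ATF4 by 0.49 and EPAS1 by 1.60 (edgeR adjusted p 2.16e-06, 0.00626 and 0.0368). The share was 25.0%, beside 16.1% of all tested genes above the median level (8.76% of all). CEBPB held in all 15 alternatives. The EPAS1 value was 0.84 without the OCI-AML4 HOTSCRAMBL KO library (edgeR adjusted p 0.564) and 2.22 without the MOLM13 one (0.0379), and its call was lost without any of the other libraries. The ATF4 call was lost without either AAVS1 KO library or the MOLM13 HOTSCRAMBL KO one (edgeR adjusted p up to 0.166). With CBE none of the 12 passed with edgeR, 1 passed with DESeq2 and 1 had an unadjusted p under 0.05, with ATF4 at 0.31 (edgeR adjusted p 0.0862). Targets of ATF4, the transcription factor of the integrated stress response, had 5 of 18 called with KO (4 higher, 1 lower) and 13 of 18 with CBE (12 higher, 1 lower). That is 27.8% and 72.2%, beside 8.76% and 8.83% of all tested genes and 16.1% and 16.8% of those above the median level. Their medians were 0.09 and 0.55. TRIB3 stood at 61.8 and 77.1 CPM in AAVS1 CBE and at 208 and 256 CPM in HOTSCRAMBL CBE, and rose by 1.74 (SE 0.142, edgeR adjusted p 1.69e-09). MTHFD2 and SHMT2, enzymes of mitochondrial one-carbon metabolism, rose by 0.87 and 1.01 with CBE (edgeR adjusted p 5.17e-05 and 1.19e-04). PPP1R15A was the 1 lower gene with both editors, by 0.79 with KO and 0.71 with CBE (edgeR adjusted p 1.14e-06 and 5.46e-06). With KO, ATF3, NUPR1 and SLC7A5 rose by 1.99, 2.28 and 0.67 (edgeR adjusted p 2.57e-05, 5.88e-05 and 6.57e-05).

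Of 16 tested p53 targets, 6 passed with KO, all higher, and 3 with CBE, 2 higher and 1 lower, with medians of 0.48 and -0.16. The share was 37.5% with KO, beside 16.1% of all tested genes above the median level (8.76% of all), and 18.8% with CBE, near the 16.8% there (8.83% of all). CDKN1A, MDM2 and BTG2 rose by 0.83, 0.67 and 1.23 with KO (edgeR adjusted p 9.44e-05, 1.55e-04 and 0.00352). BBC3 rose by 0.57 with KO and 0.95 with CBE (edgeR adjusted p 9.20e-04 and 5.11e-07). With CBE, CCNG1 rose by 1.25 and PLK3 fell by 0.76 (edgeR adjusted p 0.00998 and 0.0402). Of 12 tested hypoxia targets, 5 passed with KO (4 higher) and 4 with CBE (4 higher), or 41.7% and 33.3% beside the same shares. NDRG1 rose by 0.64 with KO and 0.71 with CBE (edgeR adjusted p 0.00223 and 3.45e-04). Its KO value was 0.40 without the MOLM13 HOTSCRAMBL KO library (edgeR adjusted p 0.212) and 0.85 without the OCI-AML4 one, and the call was lost also without the MOLM13 AAVS1 KO library (0.225). With KO, VEGFA fell by 0.97 and ADM rose by 2.00 (edgeR adjusted p 4.40e-08 and 0.0118). With CBE, BNIP3, SLC2A1 and P4HA1 rose by 1.21, 0.73 and 0.88 (edgeR adjusted p 0.00313, 0.0434 and 0.0439). EGLN3 rose by 4.17 with KO (edgeR adjusted p 7.24e-04), from 2 and 38 counts to 164 and 454. Its value was 6.97 without the OCI-AML4 AAVS1 KO library and 3.49 without the OCI-AML4 HOTSCRAMBL KO one (edgeR adjusted p 0.0761 and 0.147), and the call was lost also without the MOLM13 AAVS1 KO library. Of 12 glucocorticoid and FOXO targets, 4 passed with KO (2 higher) and 3 with CBE (2 higher), or 33.3% and 25.0%. TXNIP, which limits glucose uptake, rose by 0.51 with KO and 1.32 with CBE (edgeR adjusted p 0.0197 and 2.99e-08). CITED2 rose by 0.68 and KLF6 and ZBTB16 fell by 1.17 and 1.01 with KO (edgeR adjusted p 1.40e-04, 2.36e-04 and 6.57e-04). FKBP5 rose by 0.71 and DUSP1 fell by 1.07 with CBE (edgeR adjusted p 0.00123 and 0.00208). Both calls were lost without the MOLM13 library of AAVS1 CBE or of HOTSCRAMBL CBE, with edgeR adjusted p up to 0.134 for FKBP5. The DUSP1 value was -0.62 without the MOLM13 HOTSCRAMBL CBE library (edgeR adjusted p 0.367) and -1.51 without the OCI-AML4 one.

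Pooled over the 11 lists, 145 of 148 genes were tested. With KO 35 passed, or 24.1%, and with CBE 36, or 24.8%, against 16.1% and 16.8% of the tested genes above the median level, where 131 of the listed genes lie. The lists were written with earlier results of these data known, so their shares are no independent evidence. Of the 31 list genes that the naming rule picks with KO, 13 kept their call whichever of the 8 libraries was left out: INPP5D, RPS6KB1, ULK1, CEBPB, PPP1R15A, ATF3, NUPR1, SLC7A5, CITED2, KLF6, VEGFA, CDKN1A and MDM2. With CBE 6 of 27 did, TRIB3, PPP1R15A, MTHFD2, SHMT2, TXNIP and BBC3. Every other call of a list gene named above with KO or CBE was lost without at least 1 library, and those of IRS2, P4HA1 and PLK3 with CBE whichever was left out. Between the lines 2 list genes passed, BBC3 at -0.62 and RPS6KB1 at -0.33, MOLM13 minus OCI-AML4 (edgeR adjusted p 3.58e-05 and 0.0433), and the BBC3 call held whichever library was left out.

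Over the 8 libraries, the genes whose log2 CPM followed DDIT4 most closely, of 12027 genes above the median level, included H2BC12 (r = 0.996), TMSB4X (0.992), TP53INP2 (0.989), INSIG1 (0.988), MT-CO3 (0.986), ZFR (0.985) and the processed pseudogene ENSG00000253667 (0.981). The most opposite were RBM6 (r = -0.994), ZNF646 (-0.990), TUBGCP6 (-0.990) and TSNARE1 (-0.989). On the same measure TSC2 had -0.980, TSC1 -0.929, RHEB 0.855, SESN2 0.845, SESN3 0.781, AKT1S1 -0.532, SESN1 -0.333 and DEPTOR -0.172. The 8 points are 4 groups of 2 that share the order of their group means, so these values are descriptions without a p. DDIT4 was chosen for that order.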

How the data were processed

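The data deposited are raw counts of reads, 1 whole number for each gene in each library. Per the file headers, the authors made them with featureCounts 2.0.6 and the Ensembl 112 annotation of GRCh38, in paired-end mode without counting a pair once and without strand. The aligner and duplicate removal are not given in the sources used here. Because strand was not used, reads from overlapping or antisense genes cannot be told apart. In the table, 2 broken records were rejoined, and 99.1% of gene IDs had a symbol.

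Groups and lines came from the sample titles. Genes with enough counts (filterByExpr, 24057 genes) were fitted with edgeR 4.0.16 (quasi-likelihood F-test, robust, non-legacy quasi-dispersions, TMM scaling) on all 8 libraries, with 4 group terms and the line label. By the titles a replicate number stands for 1 cell line, so the line label is the replicate number and was used to pair the libraries. Same-numbered libraries' deviations correlated at 0.00851 to 0.0245 over all tested genes and at 0.0411 to 0.117 over those above the median level. Same-numbered libraries thus shared little, and whether the titles name each library's line rightly was not tested. P-values were adjusted over all tested genes (Benjamini-Hochberg, threshold 0.05), and 3 residual degrees of freedom remained. The fit added 22.2 to 22.7 prior degrees of freedom, so the spread used for each gene was drawn largely from other genes. Counting error is small for these genes except SESN3 and 1 DEPTOR library, and the number of libraries limits precision. SEs are the log2 fold change over the square root of F. Where an arm was left with 1 library, it is assumed to vary like the others. The script was tested on simulated data.

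The 9 genes, the 11 pathway lists and the marker lists were chosen with earlier results of these data known. From each list, genes past the threshold are named: all if 4 or fewer, otherwise the 4 with the smallest adjusted p. The 8 genes most like DDIT4 and the 4 most opposite were ranked by Pearson correlation of log2 CPM (prior count 2). Some genes these rules pick are not reported here. Alternatives were no TMM scaling, size factors or the Wald test of DESeq2 1.42.0, no filter, no line label, the contrast's libraries alone, each library left out, and legacy quasi-dispersions, which was chosen after seeing the data.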

Additional observations from a re-analysis of the deposited data

Results flagged for a closer look

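No value of the 9 mTORC1 regulators met a rule for a closer look. Among the pathway lists, 19 genes had an effect of CBE that differed from that of KO by a test of the difference itself (edgeR adjusted p below 0.05). That is 13.1% of the 145 tested, beside 3.19% of all tested genes. The lists were written with earlier results of these data known, so the share is no independent evidence. Each value below is the log2 effect of CBE minus that of KO. Of the PI3K and AKT genes, IRS1 differed by 5.63 and IRS2 by -0.89. IRS1 had 0 and 18 counts in HOTSCRAMBL KO, so its size is uncertain: 4.46 without the MOLM13 HOTSCRAMBL KO library and 12.5 without the OCI-AML4 one. Of the mTORC1 effectors, RPS6KB1 differed by -0.70. Of the inducers of DDIT4, CEBPB differed by -1.46, standing at 133 and 143 CPM in HOTSCRAMBL KO and at 55.7 and 51.8 CPM in HOTSCRAMBL CBE.

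Of the ATF4 targets, TRIB3 differed by 2.23, SLC3A2 by 0.81, VLDLR by 0.85 and ATF3 by -1.90. Of the glucocorticoid and FOXO targets, KLF6 differed by 1.36, TXNIP by 0.81 and CITED2 by -0.89. Of the hypoxia targets, SLC2A1 differed by 1.29, VEGFA by 1.16 and EGLN3 by -6.48. EGLN3 had 0 and 30 counts in HOTSCRAMBL CBE, so its size too is uncertain: -5.08 without the MOLM13 AAVS1 CBE library and -12.8 without the OCI-AML4 HOTSCRAMBL CBE one. Of the differences that the naming rule picks, all given here but PLK3, only those of TRIB3 and VEGFA passed whichever of the 8 libraries was left out. That of IRS1 was lost whichever was, and each of the others was lost without at least 1 library. Of the p53 targets, CDKN1A differed by -0.95, MDM2 by -0.82, BTG2 by -1.86, ZMAT3 by -1.53 and PLK3 by -1.19. All 5 p53 targets had the lower value with CBE.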

How the results depend on the processing

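No result changed direction where it had been called, under any alternative run. Of the tested members' values under alternatives, 695 kept their side of the threshold, 19 lost it and 7 gained it. Most of these values were not called in the main fit and so had no call to lose. All 19 losses were of the HOTSCRAMBL calls of SESN2, TSC1 and TSC2. For list genes 816 kept theirs and 332 lost it, and since only called values were followed there, none could gain a call. With the Wald test of DESeq2, genes called were 4150 with KO, 3351 with CBE, 2205 for the difference between the editors, 35 between the controls, 715 between the lines and 68 for the effect by line. DESeq2 called 3 members with KO, 5 with CBE and 1 for the difference, and 34 pathway genes for the difference, 10 between the lines and 1 for the effect by line. Fits of the contrast's libraries alone called 780 genes, 0 members and 17 pathway genes with KO, and 677, 1 and 11 with CBE. Without the line label as replicate block, 1736 genes were called with KO, 1641 with CBE and 503 for the difference, and 23 pathway genes with CBE. Legacy quasi-dispersions called 193 genes and 4 pathway genes between the lines and 2 genes for the effect by line. Without TMM scaling, 2 members were called with KO, the DDIT4 change with CBE was 2.13, and the median of all genes moved to -0.17 with KO and -0.15 with CBE. The cause of these shifts was not tested.

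Leaving out 1 library gave 677 (without the MOLM13 AAVS1 KO library) to 1674 called genes with KO and 586 (without the MOLM13 HOTSCRAMBL CBE library) to 1885 with CBE. For members the range was 0 to 1 with KO and 0 to 3 with CBE, and for pathway genes 15 to 31 and 7 to 31. For the difference between the editors it was 226 to 372 genes and 4 to 9 pathway genes, and between the lines 26 to 65 genes and 1 pathway gene. The DDIT4 difference between the editors was 0.74 to 0.93. Fewer libraries leave fewer degrees of freedom. Low counts limit SESN3 in every library and DEPTOR in 1.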
